A study of Homo sapiens with 2 samples.

Results

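The non-cycling cells described here were taken from 2 single-cell libraries of UMUC3, a cell line from a human bladder carcinoma. A cell was counted as non-cycling when it held 0 UMIs (unique molecular identifiers, each standing for 1 captured RNA molecule) of each of TOP2A, MKI67, CENPF, CDK1 and RRM2. It also had to hold at least 15000 UMIs, at most 20% of them from mitochondrially encoded genes and at least 0.1% from MALAT1, a nuclear RNA. In the control library 376 of 2936 cells met the rule and in the GANAB knockdown library 369 of 1567, together 745 of 4503 cells. All other cells that met the UMI, mitochondrial and MALAT1 limits, 2560 control and 1198 knockdown cells, are called cycling-gene-positive cells below. A single UMI of 1 of the 5 genes put a cell in that group. Without the MALAT1 limit the series held 7057 cells.

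Both groups were UMUC3 cells grown for 14 days in the bladders of C57 nude mice, which have no thymus and few mature T cells, and neither received a further treatment. The genotypes were control and GANAB knockdown, and each was captured as 1 library with 10x Genomics Chromium 3' v3 chemistry. GANAB codes for the catalytic subunit of glucosidase II, which removes glucose residues from glycoproteins in the endoplasmic reticulum (ER) and so feeds the calnexin folding cycle. How the knockdown was made, how many clones of cells or mice stood behind each library and what the control cells carried are not stated in the labels. With 1 library per group there is no test between groups. Intervals below are exact 95% intervals, except that those of differences between log2 ratios are approximate. All cover counting error only.

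A cell that stops dividing leaves the cycle in G1 and enters a state called G0. Unphosphorylated RB proteins and the DREAM complex then hold down 2 sets of promoters: E2F sites drive DNA synthesis genes of S phase, and CHR elements, often with CCAAT boxes, drive genes of mitosis. D cyclins with CDK4 and CDK6 reopen the cycle, and CDK inhibitors of the CIP/KIP and INK4 families oppose them. Counts of 0 in a droplet library do not separate cells in G0 from cells in G1, or from cycling cells whose few transcripts were missed.

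Promoter sequences show the CHR element that many genes low in the non-cycling cells share, TTTGAA on either strand (TTCAAA when read from the other strand). The motif was searched in the 250 bases before each start site in RefSeq (GRCh38.p14). The 4 windows below are 100 bases each, written 5' to 3' along the gene, with CHR matches in capitals. MKI67 is a gene of the rule, and CDC20, HMMR and CCNB2 are among the 12 genes lowest in the non-cycling cells of both libraries.
MKI67, chr10:128126424-128126523, minus strand: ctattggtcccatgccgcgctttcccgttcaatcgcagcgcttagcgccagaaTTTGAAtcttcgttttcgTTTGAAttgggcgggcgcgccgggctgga
CDC20, chr1:43358876-43358975, plus strand: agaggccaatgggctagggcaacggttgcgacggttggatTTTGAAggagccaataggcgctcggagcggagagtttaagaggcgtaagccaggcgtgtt
HMMR, chr5:163460532-163460631, plus strand: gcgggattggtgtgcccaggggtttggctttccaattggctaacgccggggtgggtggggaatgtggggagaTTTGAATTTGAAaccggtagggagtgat
CCNB2, chr15:59105046-59105145, plus strand: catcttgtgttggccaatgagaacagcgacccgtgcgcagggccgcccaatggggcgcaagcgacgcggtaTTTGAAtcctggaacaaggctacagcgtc

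The CHR letters were in 13.6% of 27305 RefSeq promoters and in 8.15% of the 6771 promoters matched to measured genes. They were in 20 of the 42 matched promoters of the G2 and M phase list (47.6%) and in 2 of 32 of the S phase list (6.25%). Of the 12 genes lowest in the non-cycling cells 9 could be matched, and 6 of these held the letters. A match describes the sequence and is not evidence of a bound site.

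A second set of promoters belongs to interferon-induced genes, which were among the genes highest in knockdown non-cycling cells. They are shown with matches to the interferon-stimulated response element, in capitals: GAAA, any 2 bases and GAAA again, or TTTC, any 2 bases and TTTC where it lies on the other strand. IFIT1 codes for a protein that binds viral RNA, BST2 for tetherin, ISG15 for a ubiquitin-like modifier and IFI6 for a small membrane protein.
IFIT1, chr10:89392480-89392579, plus strand: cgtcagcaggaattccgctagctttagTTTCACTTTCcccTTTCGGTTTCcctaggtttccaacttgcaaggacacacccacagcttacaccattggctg
BST2, chr19:17405695-17405794, minus strand: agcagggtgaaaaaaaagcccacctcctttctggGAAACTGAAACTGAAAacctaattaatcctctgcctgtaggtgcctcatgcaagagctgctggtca
ISG15, chr1:1013350-1013449, plus strand: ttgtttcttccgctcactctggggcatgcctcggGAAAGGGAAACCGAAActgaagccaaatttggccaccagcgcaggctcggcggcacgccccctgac
IFI6, chr1:27672226-27672325, minus strand: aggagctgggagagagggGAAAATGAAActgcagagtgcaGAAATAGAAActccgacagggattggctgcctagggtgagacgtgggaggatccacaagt

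The element was in 18 of 29 matched promoters of the type I interferon list (62.1%), against 3.07% of all promoters and 2.50% of those of measured genes. In BST2 and ISG15 2 matches overlap by 4 bases.

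The label was set beside markers fixed with the lists, which were chosen with earlier results of these data known. All 12 UMUC3 tumour cell markers, among them VIM, KRT18, CD44 and AXL, reached 10 CPM (UMIs of a gene per 1000000 UMIs) in the non-cycling cells of both libraries. Every non-cycling cell held at least 10 of their UMIs, from at least 8 of the 12 genes in control and 9 in knockdown cells. Summed markers of fibroblasts were at 25.4 CPM in control and 2.68 CPM in knockdown non-cycling cells, with DCN, LUM and DPT at 0 in both and 3 control cells at 10 or more UMIs. Smooth muscle markers were at 15.3 and 20.9 CPM, macrophage markers at 23.5 and 21.1 CPM, and all 6 endothelial markers were at 0 in control cells and at 0.553 CPM together in knockdown cells. B cell, erythroid and normal urothelial markers each summed to under 1 CPM. The T and NK cell list stood at 0.237 CPM in control and 828 CPM in knockdown non-cycling cells, and CCL5 was the only gene of that list with a UMI in the latter. CD3D, CD3E, CD2, NKG7, GNLY and PTPRC were at 0 there. The neutrophil list summed to 80.1 and 8.05 CPM, of which G0S2, a lipase inhibitor also made by other cells, gave 72.9 and 7.502 CPM.

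The non-cycling cells held 12645900 UMIs in control and 12663328 UMIs in knockdown cells, so their summed levels have like precision. Their median depth was 32458 and 32611 UMIs per cell, against 51224 and 49256.5 in the cycling-gene-positive cells. Ribosomal protein genes took 36.6% and 35.7% of their UMIs, against 31.9% and 33.4%. The median MALAT1 share was 1.00% and 1.69% in non-cycling and 0.590% and 0.908% in the other cells, and the rule used this share. No barcode was shared between the non-cycling cells of the libraries. Barcodes under 100 UMIs, which stand for free RNA, held the 5 rule genes at 448 CPM in the control library and 317 CPM in the knockdown one, so a stray molecule can move a non-cycling cell out of the group. How far this changed membership was not tested.

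Non-cycling cells made up 12.8% (11.6% to 14.1%) of control and 23.5% (21.5% to 25.7%) of knockdown cells. Since a count of 0 is easier to reach in a shallow cell, the share was also taken by depth. Between 15000 and 25000 UMIs it was 33.0% in control and 44.7% in knockdown cells, between 25000 and 40000 UMIs 26.3% and 37.5%, between 40000 and 60000 UMIs 8.49% and 19.95%, and from 60000 UMIs 0.667% and 3.28%. With every cell thinned at random to 15000 UMIs, 26.6% (25.01% to 28.2%) of control and 43.7% (41.2% to 46.2%) of knockdown cells held none of the 5 genes. The knockdown share was above the control share in all 4 depth ranges and after thinning. The intervals of the 2 libraries overlapped only in the shallowest range, and whether separate cultures or animals of 1 genotype vary by as much cannot be told from 1 library each.

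**Figure D1:**
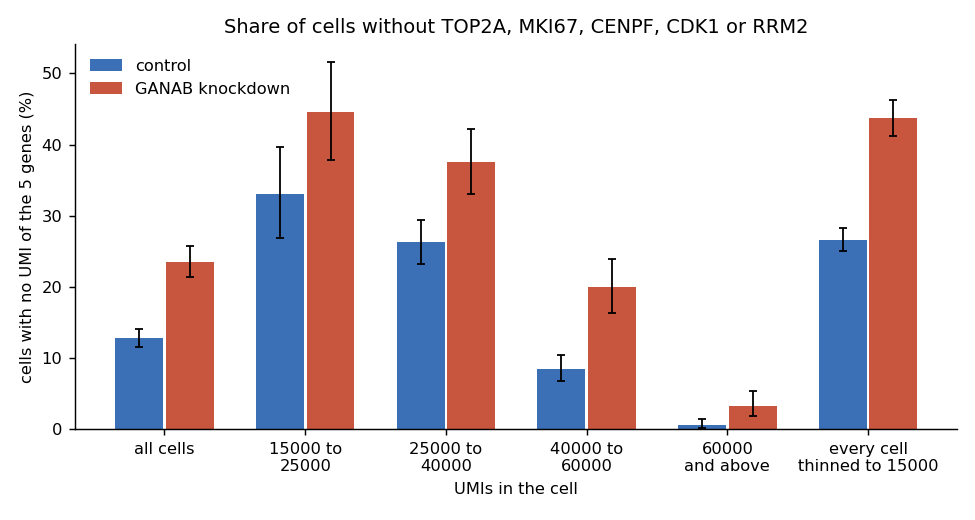
Share of cells with 0 UMIs of all 5 rule genes (vertical axis, %) in the control and knockdown library, for all cells, by UMIs in the cell, and with every cell thinned to 15000 UMIs. Bars are shares and error bars exact 95% intervals. The knockdown bar stands above the control bar in each range, from 44.7% against 33.0% in the shallowest to 3.28% against 0.667% in the deepest.

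The edge of the rule was gradual. Summed over the S phase list, control cells with 0 UMIs of the 5 rule genes held 744 CPM, the 369 cells with 1 UMI 844 CPM and the 236 cells with 2 UMIs 1028 CPM. In the knockdown library the same sums were 569, 605 and 660 CPM, over 369, 292 and 179 cells. The G2 and M phase sums were 1109, 1221 and 1357 CPM in control and 1144, 1233 and 1310.0 CPM in knockdown cells. Just under the UMI limit, from 14000 to 15000 UMIs, 5 control and 16 knockdown barcodes held none of the 5 genes, and just above it, to 16000 UMIs, 6 and 12. With MALAT1 between 0.05% and 0.1% there were 63 and 83 further such cells, and between 0.1% and 0.15% 22 and 37. None had a mitochondrial share between 15% and 25%.

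Cells chosen by 5 cycling genes were low in the other cycling genes, which follows from the choice and is given as a description. All 38 measured S phase genes were lower in control non-cycling cells than in the other control cells by at least 1.5-fold with an interval that leaves out 1, and 35 of 37 were lower in the knockdown library. Of 50 measured G2 and M phase genes 48 and 45 were lower. The median log2 ratio was -2.17 and -1.78 for S phase and -3.37 and -3.67 for G2 and M phase. Over all measured genes, those of at least 10 CPM in either group, it was -0.11 and -0.05. In the control library 12.3% of 7929 measured genes were lower and 4.52% higher in non-cycling cells, and in the knockdown library 12% and 4.95% of 8025. Since the rule made this contrast, these shares carry no test.

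The lowest genes served mitosis. HMMR, a spindle protein, was at 1.27 CPM in control and 0.948 CPM in knockdown non-cycling cells, against 94.4 and 73.2 CPM in the other cells. DLGAP5, another spindle protein, was at 0.474 and 0.316 CPM against 53.4 and 50.9 CPM. Both were nearly absent from non-cycling cells of either library. CDC20, the activator of the anaphase-promoting complex, was at 5.77 CPM in control and 0.632 CPM in knockdown non-cycling cells, against 132 and 73.9 CPM. BIRC5 (survivin) stood at 6.56 and 1.11 CPM against 125 and 81.3 CPM, and CCNB2 (cyclin B2) at 6.41 and 3.24 CPM against 79.6 and 60.8 CPM. UBE2C, which loads ubiquitin for the same complex, stayed easy to detect at 57.2 and 19.9 CPM, against 641 and 429 CPM. Among DNA synthesis genes TYMS, thymidylate synthase, was at 9.81 and 4.03 CPM against 158 and 118 CPM, and PCNA, the polymerase clamp, at 64.8 and 51.0 CPM against 290.2 and 155 CPM. PCNA thus kept a level that HMMR and DLGAP5 did not.

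**Figure D2:**
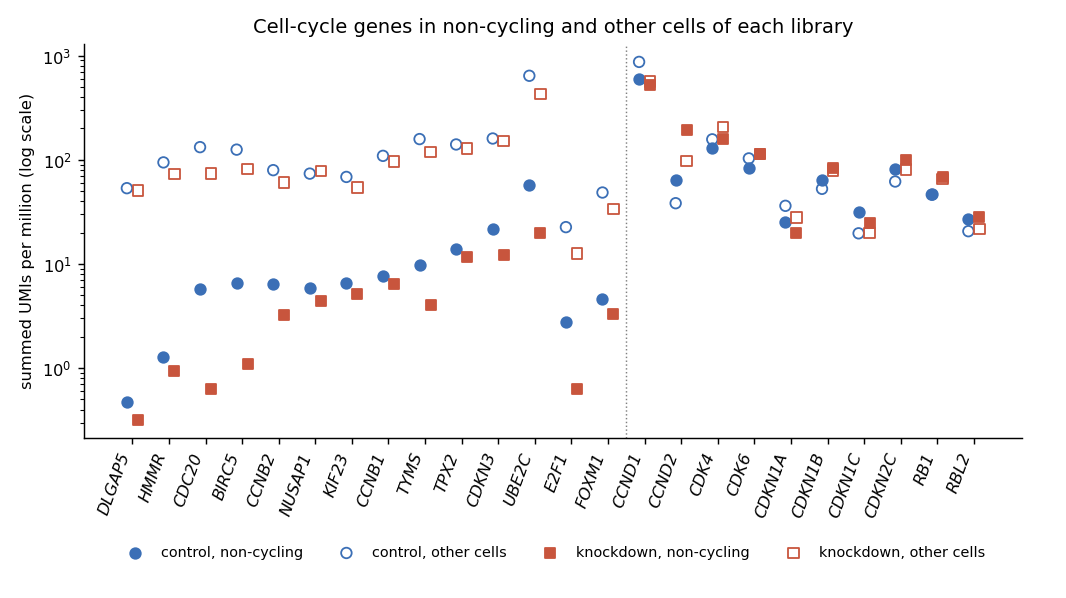
Summed level in CPM (log scale) of cell-cycle genes in non-cycling cells (filled) and other cells (open) of the control (circles) and knockdown (squares) library. Left of the dotted line are genes of S, G2 and M phase with E2F1 and FOXM1, which lie far lower in non-cycling cells. Right of it are D cyclins, their kinases, CDK inhibitors, RB1 and RBL2, whose levels lie close together, with CCND2 as the widest apart.

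Of 15 measured RB, E2F and DREAM factors 5 were lower in the non-cycling cells of each library and none higher. These were E2F1, FOXM1, MYBL2, RBL1 and TFDP1. Since the cells were chosen by cycling genes, this too is a description. E2F1, the activator that is itself an E2F target, was at 2.77 and 0.632 CPM in non-cycling cells against 22.6 and 12.5 CPM. FOXM1 was at 4.59 and 3.32 CPM against 48.5 and 33.5 CPM, and MYBL2 at 1.03 and 0.711 CPM against 33.2 and 28.0 CPM. These 2 factors drive the genes of G2 and M phase. The pocket protein gene RB1 was at 47.1 and 68.5 CPM in non-cycling and 46.2 and 65.2 CPM in other cells, and RBL2 (p130) at 27.0 and 28.3 CPM against 20.6 and 21.7 CPM, both short of 1.5-fold. RBL1 (p107), an E2F target, was lower, at 10.1 and 6.002 CPM against 25.02 and 17.9 CPM.

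Of the G1 list, 11 of 14 genes were measured in control and 10 in knockdown cells. In control cells CCND2 and CDKN1C were higher and CCNE1 and CDK2 lower in non-cycling cells, and in knockdown cells CCND2 was higher and CDK2 lower. CCND2 (cyclin D2) was at 63.9 CPM in control and 192 CPM in knockdown non-cycling cells, against 38.3 and 97.8 CPM in the others. CCND1 (cyclin D1) was at 594 and 519 CPM against 871 and 567 CPM. The inhibitor genes did not rank the groups apart by 1.5-fold in both libraries: CDKN1A (p21) was at 25.5 and 19.7 CPM against 36.2 and 28.1 CPM, CDKN1B (p27) at 64.1 and 83.8 CPM against 52.7 and 78.8 CPM, and CDKN2C (p18) at 81.8 and 100.2 CPM against 61.9 and 80.5 CPM. CDKN2A and CDKN2B had no UMI in any of the 4 groups, where 3 counts would have been 0.237 CPM in each group of non-cycling cells.

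The quiescence-linked list holds KLF, FOXO, BTG and MXD factors among others. In control non-cycling cells 7 of 21 measured genes were higher (KLF2, KLF9, TXNIP, CCNG2, PDCD4, MXI1 and MXD4) and none lower. In the knockdown library 10 of 25 were higher (KLF2, KLF9, FOXO1, TXNIP, CCNG2, YPEL2, GAS1, GAS6, PDCD4 and MXI1) and 1 lower. No BTG gene was among the higher ones in either library. TXNIP, which binds thioredoxin and curbs glucose uptake, was at 17.3 and 33.1 CPM against 5.59 and 17.2 CPM. CCNG2, a cyclin of arrested cells, was at 22.9 and 35.0 CPM against 10.8 and 20.4 CPM, and the MYC antagonist MXI1 at 61.8 and 69.2 CPM against 31.6 and 42.0 CPM. All 3 were higher in both libraries. The type I interferon list was higher in 16 of 22 and 24 of 32 measured genes, with medians of 0.89 and 0.67. BST2 was at 15.2 and 123 CPM in non-cycling and 2.64 and 42.9 CPM in other cells.

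Among the 12 genes highest in the non-cycling cells of both libraries were CLU, TSC22D1, ITM2B, LTBP1, ZBTB20, EDIL3, LPCAT2, KLF2, ISG15 and IFI6. CLU (clusterin, a secreted chaperone) was at 1579.6 CPM in control and 3635 CPM in knockdown non-cycling cells, against 642 and 1398 CPM. TSC22D1, a transcription regulator induced by TGF-beta, was at 542 and 868 CPM against 185 and 429 CPM. In the other direction 20 and 23 of 28 MYC target genes were lower, RANBP1 (nuclear transport) at 190.2 and 119 CPM against 505 and 327 CPM. So were 14 of 20 nucleotide synthesis genes in each library, and 12 of 23 and 13 of 18 cholesterol synthesis genes. The medians of these 3 lists were -0.67 and -0.73, -0.70 and -0.87, and -0.59 and -0.74.

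Of the genes higher in non-cycling cells 188 were shared by the libraries, 52.5% of the control and 47.4% of the knockdown calls. Of those lower 692 were shared, 70.9% and 71.8%. Scaling bore on the balance. In the control library the split between 358 higher and 976 lower genes moved to 527 and 698 with ratios centred on the median gene, and to 697 and 803 with mitochondrial and ribosomal protein genes left out of the totals. In the knockdown library, the 397 higher and 964 lower genes moved to 202 and 635 without cells above 100000 UMIs, and 185 were higher with cells weighted equally.

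These contrasts were smaller among cells of like depth. Among cells of 25000 to 40000 UMIs, 211 non-cycling and 592 other control cells and 170 and 283 knockdown cells, a setting chosen after the data were seen, 322 genes (4.11%) were lower and 88 (1.12%) higher in control, and 301 (3.78%) and 39 (0.489%) in knockdown cells. G2 and M phase genes stayed lower in 37 of 42 and 31 of 38 cases, with medians of -2.33 and -1.75, and S phase genes in 24 of 32 and 21 of 29, with medians of -0.95 and -0.80. E2F1 ratios there were -2.63 and -2.91 and MYBL2 ratios -4.11 and -3.32 (log2). MYC targets were lower in 3 of 28 genes in each library, cholesterol synthesis genes in 4 of 23 and 5 of 19, and nucleotide synthesis genes in 4 of 19 and 4 of 18.

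The genes higher in non-cycling cells were fewer at matched depth. Of the quiescence-linked list only TXNIP in control and KLF2 in knockdown cells remained higher, with list medians of 0.00 and 0.14, and 1 of 25 genes was lower in knockdown cells. Of the interferon list 7 of 20 were higher in control cells (IFIT1, IFI6, IFI44, ISG15, BST2, IFITM2 and XAF1, the last not called over all cells). In knockdown cells 2 of 32 were higher (IFI44L and BST2) and 1 lower. BST2 was the one interferon gene higher in both, by 1.26 and 0.69 (log2). CLU ratios were 0.71 and 0.55, while EDIL3 and LPCAT2, higher over all cells, were at -0.16 and -0.02 in the knockdown library. KLF2 and KLF9 were at -0.13 and -0.04 in the control library.

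**Figure D3:**
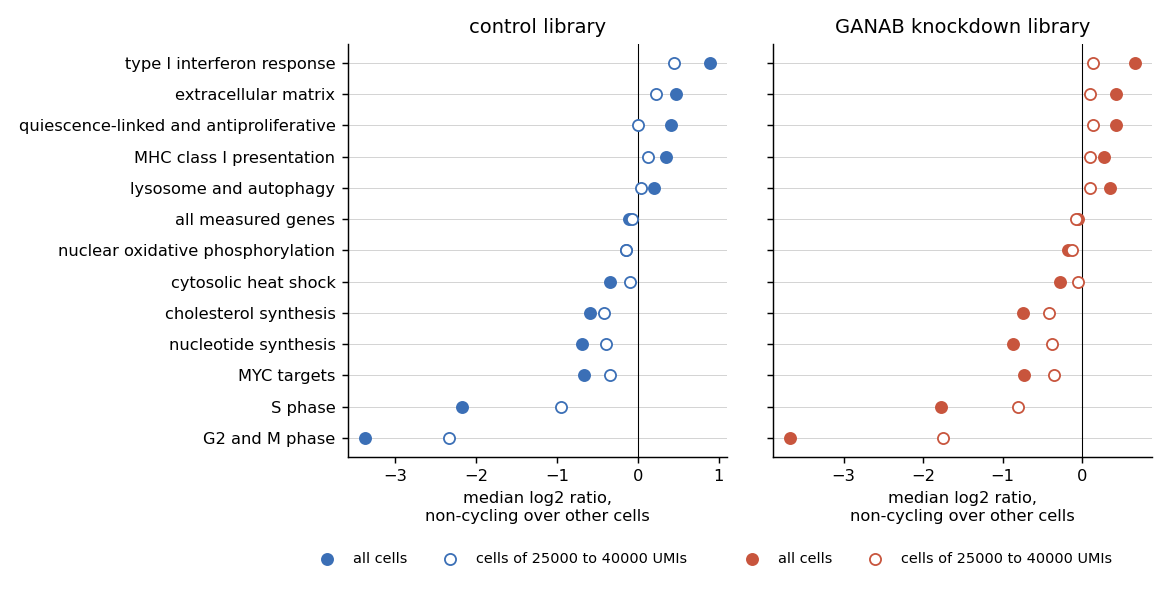
Median log2 ratio of non-cycling over other cells (horizontal axis) for gene lists in the control and knockdown library, over all cells (filled) and in cells of 25000 to 40000 UMIs (open). The G2 and M phase medians stay far below 0, at -2.33 and -1.75 in the matched cells, while the quiescence-linked medians move to 0.00 and 0.14.

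The comparison of genotypes within non-cycling cells was not part of the rule. It uses the same non-cycling cells as the contrasts above, so the results share their counts. GANAB (chr11:62624826-62646726, GRCh38) was at 113 CPM in control and 40.4 CPM in knockdown non-cycling cells, a log2 ratio of -1.48 (-1.63 to -1.34), and at 134 and 46.2 CPM in the other cells. The label of the knockdown library thus matched the transcript in both groups. PRKCSH, the beta subunit of glucosidase II, was at 81.1 and 45.2 CPM. Of the other members of the calnexin cycle list CALR (calreticulin) was lower, at 404 and 227 CPM, and CANX (calnexin) did not pass 1.5-fold, at 357 and 392 CPM.

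In all, 975 of 7959 measured genes (12.3%) were at least 1.5-fold higher and 848 (10.7%) at least 1.5-fold lower in knockdown non-cycling cells, with a median of 0.02 over all genes. In the other cells 8.58% of 8090 genes were higher and 8.97% lower. Of the higher genes 537 were called in both kinds of cell, 55.1% of those in non-cycling and 77.4% of those in the other cells, and of the lower ones 494, 58.3% and 68.0%. The lists differed far more than the whole, with the interferon response at one end and cholesterol synthesis at the other.

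**Figure D4:**
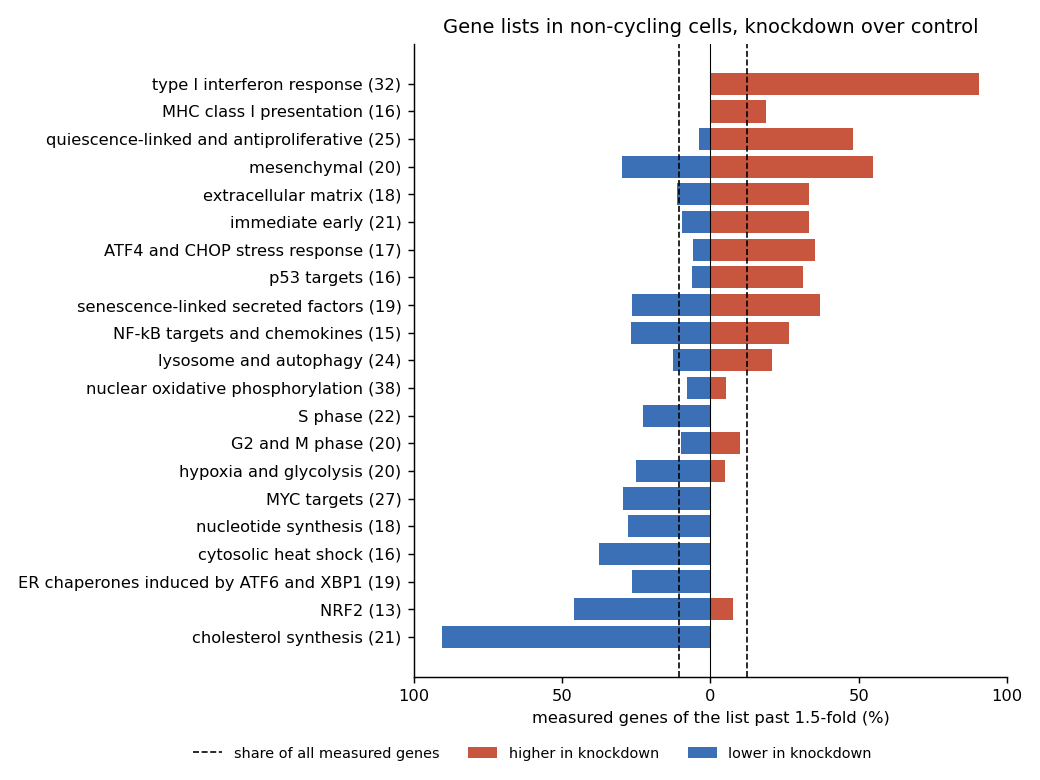
Share of the measured genes of each list (number in brackets) that were at least 1.5-fold higher (right, red) or lower (left, blue) in knockdown than in control non-cycling cells, with intervals leaving out 1. Dashed lines give the shares of all measured genes, 12.3% higher and 10.7% lower. Of 32 interferon genes 29 lay to the right and of 21 cholesterol synthesis genes 19 to the left.

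Type I interferon genes were higher in knockdown non-cycling cells in 29 of 32 measured cases, with none lower and a median of 1.93. IFIT2 was at 7.99 CPM in control and 197 CPM in knockdown non-cycling cells, a log2 ratio of 4.62 (4.34 to 4.93). IFIT1 was at 16.8 and 155 CPM, IFIT3 at 14.7 and 213 CPM and OASL, a relative of the oligoadenylate synthetases, at 4.27 and 62.8 CPM. ISG15 was at 339.8 and 1030.5 CPM, IFI6 at 133 and 643 CPM and IFI27 at 12.9 and 121 CPM. IFITM3, PARP9 and PARP14 did not pass 1.5-fold. Genes within the IFIT family, and genes within the IFITM family, share sequence, so reads may have been split within each family. In the other cells 26 of 29 measured genes were higher, with a median of 2.02.

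The IFIT transcripts sat in a minority of cells, while IFI6 was spread more widely. In the knockdown library 72 of 369 non-cycling cells, 19.5% (15.6% to 23.9%), held 10 or more UMIs of IFIT1, IFIT2 and IFIT3 together, and these held 91.6% of all 7162 such UMIs. In the control library 9 of 376 cells held 48.8% of 500 UMIs. IFI6 reached 10 UMIs in 184 of 369 knockdown non-cycling cells, 49.9% (44.6% to 55.1%), against 42 of 376 control ones, 11.2% (8.17% to 14.8%). With each cell thinned to 15000 UMIs, 22.2% (18.1% to 26.8%) of knockdown non-cycling cells had at least 5 of these UMIs, against 13.9% (11.9% to 15.9%) of the other knockdown cells, 3.46% (1.85% to 5.84%) of control non-cycling and 0.586% (0.328% to 0.965%) of other control cells. In the knockdown library the 72 cells had a median depth of 31875 UMIs and the rest 32732 UMIs. Free RNA of that library held IFIT1 at 84.9 CPM, so cells with 1 or 2 UMIs need not have made them.

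**Figure D5:**
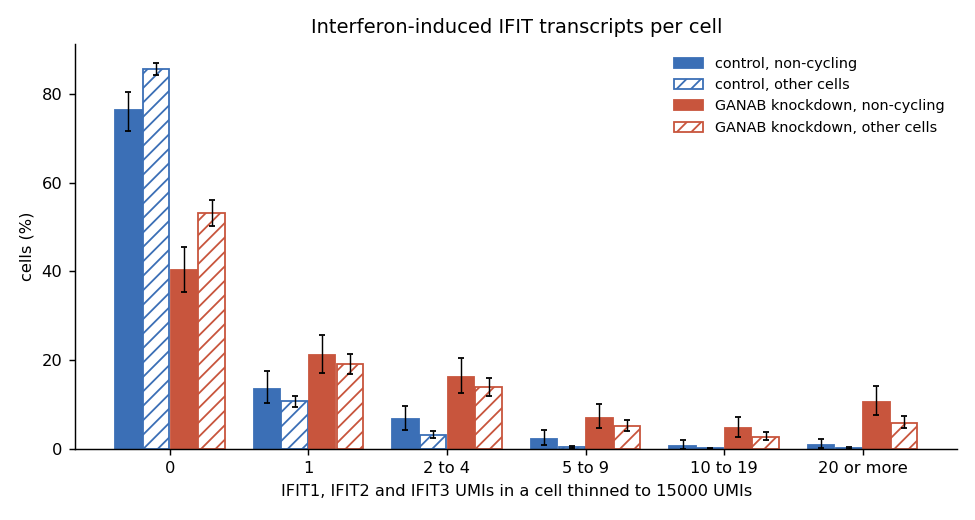
Share of cells (%) by their UMIs of IFIT1, IFIT2 and IFIT3 together, with each cell thinned to 15000 UMIs, for non-cycling (solid) and other (hatched) cells of the control and knockdown library. Error bars are exact 95% intervals. No such UMI was found in 76.3% of control and 40.4% of knockdown non-cycling cells, and 20 or more in 0.798% and 10.6%.

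Set against the other 297 knockdown non-cycling cells, the 72 cells, which were chosen by IFIT genes, were higher in 364 of 7859 genes (4.63%) and lower in 232 (2.95%). As a description, 13 of 16 MHC class I genes were among the higher ones, with a list median of 0.81.

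Without cells of 10 or more IFIT UMIs in either library, 17 of 26 measured interferon genes were still higher, with a median of 1.13. IFI6 was then at 438 CPM in knockdown non-cycling cells and BST2 at 65.2 CPM, while ISG15 was at 330.1 CPM, against 274 CPM in control, and no longer passed 1.5-fold. Over all 7959 genes 975 (12.3%) were then higher and 859 (10.8%) lower, close to the counts with those cells.

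CCL5 (chr17:35871491-35880793), a chemokine that draws T cells, had the largest ratio of all. It had 2 UMIs in control non-cycling cells, 0.158 CPM, and 10486 UMIs in knockdown ones, 828 CPM, a log2 ratio of 12.03 (10.50 to 15.40). Of 369 knockdown non-cycling cells 276 had none, and 42 held 98.8% of the UMIs. In the other knockdown cells it was at 182 CPM. Without the interferon-high cells it was at 153 CPM. The summed markers of T and NK cells other than CCL5 were at 0 in knockdown non-cycling cells.

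Antigen presentation moved less as a list. HLA-B, HLA-F and B2M were higher among 16 measured MHC class I genes, with a list median of 0.20. B2M, the light chain shared by class I molecules, was at 1308 and 3678 CPM and HLA-B at 394 and 846 CPM. Among cells with at least 5 UMIs of FAM133A and TMEM132D-AS1 together, B2M was the only one of the 16 that was higher, and the list median was -0.05. HLA genes share sequence, so their counts are uncertain.

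Cholesterol synthesis genes were lower in 19 of 21 measured cases and higher in none, with a median of -1.14. In the other cells 22 of 23 were lower, with a median of -1.10. HMGCS1, the synthase ahead of HMG-CoA reductase, was at 302 CPM in control and 65.8 CPM in knockdown non-cycling cells, a log2 ratio of -2.20 (-2.31 to -2.09). MSMO1, a sterol oxidase later in the pathway, was at 141 and 34.6 CPM. The sterol sensors and regulators INSIG1, at 83.8 and 37.9 CPM, and SREBF2, at 29.6 and 13.4 CPM, were lower as well. PMVK, at 44.0 and 43.0 CPM, and SC5D, at 32.3 and 25.6 CPM, did not pass 1.5-fold. Summed over the list the level was 1375 CPM in control and 536 CPM in knockdown non-cycling cells. Over all cells this list was thus lower in non-cycling than in other cells and lower again in the knockdown. At 25000 to 40000 UMIs the first contrast held for 4 of 23 genes in control and 5 of 19 in knockdown cells, with medians of -0.42 in both.

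ER chaperones and the ATF4 response differed. Of 19 measured ER chaperone genes induced by ATF6 and XBP1 5 were lower and none higher, and the list median was -0.43. HSPA5 (BiP) was at 716 and 380 CPM, HERPUD1 at 164 and 67.0 CPM, MANF at 98.4 and 48.5 CPM, and SDF2L1 at 80.2 and 52.7 CPM. The ATF4 and CHOP list split, with 6 of 17 higher (ATF3, ASNS, PSAT1, PHGDH, NUPR1 and XPOT) and DDIT3 (CHOP) lower, at 162 and 98.0 CPM. The serine synthesis genes PHGDH, at 12.7 and 33.3 CPM, and PSAT1, at 17.6 and 44.6 CPM, were among the higher. MYC targets were lower in 8 of 27 genes, nucleotide synthesis in 5 of 18, cytosolic heat shock in 6 of 16 and NRF2 targets in 6 of 13 with 1 higher. GAPDH was at 4347 and 2284 CPM and LDHA at 297 and 122 CPM, both glycolytic enzymes of a list with 5 of 20 lower and ENO2 higher.

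The cycling genes left in non-cycling cells were compared too. TYMS, BIRC5, UBE2C, TPX2 and NUSAP1 together reached 5 UMIs in 5.85% of control and 1.08% of knockdown non-cycling cells, each thinned to 15000 UMIs. How far such cells bear on the ratios below was not tested. Of 22 measured S phase genes 5 were lower in the knockdown (MCM4, MCM5, MCM7, RFC2 and NASP) and none higher, and the list median was -0.29. Of 20 G2 and M phase genes 2 were lower, UBE2C at 57.2 and 19.9 CPM and PTTG1 at 89.6 and 46.6 CPM, and 2 higher, KIF20B at 13.3 and 21.3 CPM and CBX5 at 89.5 and 161 CPM. Both shares, 10% each, were near those of all measured genes, 10.7% lower and 12.3% higher. Among quiescence-linked genes 12 of 25 were higher and 1 lower, and the list median was 0.52. KLF2, a transcription factor that holds several cell types in quiescence, was at 89.9 CPM in control and 296 CPM in knockdown non-cycling cells, a log2 ratio of 1.72 (1.62 to 1.82). KLF4 was at 9.96 and 54.6 CPM, KLF9 at 12.3 and 34.3 CPM and TOB1 at 33.8 and 65.9 CPM. HES1, the Notch target, was the lower one, at 274 and 65.0 CPM. KLF2 was higher in the other knockdown cells too, at 151 CPM against 50.3 CPM. CCND2 was the one G1 gene of 9 that was higher, with a log2 ratio of 1.58 (1.47 to 1.70), and none was lower. That share of higher genes, 11.1%, was near the 12.3% of all measured genes.

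Mesenchymal genes went both ways, with 11 of 20 measured genes higher and 6 lower. VIM (vimentin) was at 3319.9 and 5192 CPM, SPARC at 95.6 and 422 CPM, S100A4 at 8.22 and 41.8 CPM and TAGLN at 1.90 and 27.0 CPM. CDH2 (N-cadherin) was at 53.4 and 1.97 CPM, TPM2 at 1532 and 728 CPM and CALD1 at 249 and 112 CPM. The matrix genes COL5A1, at 3.64 and 28.3 CPM, and HSPG2 (perlecan), at 21.3 and 48.8 CPM, were higher, in a list of 6 higher and 2 lower among 18. PLOD2 and COL1A1 were the lower ones. COL1A1, at 11.4 and 0.395 CPM, is also a fibroblast marker, and the summed fibroblast markers were at 25.4 and 2.68 CPM. Their part in this difference was not tested. Secreted factors linked to senescence split into 7 higher and 5 lower of 19: IGFBP6 was at 122 and 381 CPM, and PLAU (urokinase) at 821 and 350.1 CPM. Immediate early genes were higher in 7 of 21 and lower in 2, with FOS at 324 and 902 CPM and NR4A1 at 45.9 and 154 CPM.

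The single genes with the largest ratios apart from these lists were SPANXB1, at 6.01 and 207 CPM, CLIC3, at 4.67 and 60.4 CPM, MATN2 (a matrix adaptor), at 7.91 and 92.1 CPM, TMEM132D-AS1, at 11.7 and 141 CPM, and SEMA3A (a guidance cue), at 13.7 and 106 CPM. SPANXB1 belongs to a family of near copies and TMEM132D-AS1 is an antisense RNA counted under a strand rule that is not given, so both levels are uncertain. SPANXB1, SEMA3A and TMEM132D-AS1 also belong to a list linked to cells marked by FAM133A and TMEM132D-AS1, described below. The median log2 ratio of that list was 2.67 over all non-cycling cells and -0.064 among marked ones. The list holds FAM133A and TMEM132D-AS1, by which the marked cells were chosen, so this fall follows in part from the choice. On the lower side were MAN1A1, a Golgi mannosidase that trims N-glycans, at 81.1 and 1.34 CPM, MME (neprilysin), at 87.2 and 1.74 CPM, VGF, at 285 and 8.61 CPM, HHIP, which binds Hedgehog ligands, at 53.6 and 2.37 CPM, and HMGA1, a chromatin protein, at 514 and 89.9 CPM. MAN1A1 was as low in the other knockdown cells, at 1.46 CPM against 88.5 CPM.

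The libraries also differed in a group of cells marked by FAM133A and TMEM132D-AS1. Cells with at least 5 UMIs of the pair were 7.18% (4.79% to 10.3%) of control and 78.6% (74.0% to 82.7%) of knockdown non-cycling cells, and 12.7% and 88.9% of the other cells. With 15000 UMIs per cell and at least 2 UMIs of the pair, the shares were 12.2% and 82.7% in non-cycling and 11.4% and 84.98% in other cells. Whether these cells are a subclone of the line, and how much of each ratio above comes from this makeup rather than from GANAB, cannot be told apart over all cells.

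Within the control library, where no cell carried the knockdown label, the 27 marked non-cycling cells were higher than the other 349 in 727 of 7870 genes (9.24%) and lower in 483 (6.14%). Interferon genes were higher there in 30 of 32 cases with none lower, and the list median was 1.61. NF-kB targets went the other way, with 9 of 15 lower, 1 higher and a median of -0.97.

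Among marked cells alone, 27 control and 290 knockdown non-cycling cells, 502 of 7880 genes (6.37%) were higher and 535 (6.79%) lower. The control side then rested on 1003464 UMIs. Cholesterol synthesis was lower in 14 of 21 genes with a median of -0.99, and GANAB was at 125 and 40.2 CPM. Interferon genes were higher in 14 of 33 with 1 lower and a median of 0.62, IFIT2 at 40.9 and 224 CPM. The quiescence-linked list had 5 of 25 higher and 4 lower, and its median was 0.13. KLF2 was at 159 and 303 CPM, and TXNIP, higher in the knockdown over all non-cycling cells, was lower there, at 53.8 and 35.9 CPM. Of 21 measured S phase genes none was lower or higher among marked cells, where the median was -0.12. Of 19 G2 and M phase genes 3 were higher (CKS2, ANP32E and KIF20B) and none lower, with a median of 0.23. UBE2C, at 16.9 and 20.2 CPM, and PTTG1, at 40.9 and 46.0 CPM, did not pass 1.5-fold. FN1 (fibronectin) was at 8.46 and 27.5 CPM over all non-cycling cells and at 43.8 and 27.9 CPM among marked ones, where it was lower in the knockdown. NUPR1, at 6.41 and 48.6 CPM over all, was at 59.8 and 41.8 CPM among marked cells and did not pass 1.5-fold there. Of the 81 NUPR1 UMIs of all control non-cycling cells 1 cell held 66.7%, so these control levels rest largely on 1 cell.

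Some genotype ratios differed between non-cycling and other cells by more than their counting intervals. HMOX1, heme oxygenase, was at 58.8 CPM in control and 10.3 CPM in knockdown non-cycling cells, and at 25.9 and 20.01 CPM in the others, a difference of log2 ratios of -2.13 (-2.42 to -1.84). In control cells it was higher in non-cycling than in other cells, and in knockdown cells lower, though at 0.26 (log2) above the others there when the rule was applied to thinned cells. G0S2 was at 72.9 and 7.502 CPM in non-cycling and 123 and 53.6 CPM in other cells, a difference of -2.08 (-2.40 to -1.76). VGF differed by -1.84, CCL2, a monocyte chemokine, by -1.80 and MME by -1.68. CDC20 differed by -2.27 (-3.43 to -1.11), TK1 by -2.15 and BIRC5 by -1.90, each with a knockdown level under 2 CPM in non-cycling cells. ASPM, at 1.34 and 4.11 CPM, differed by 1.97 the other way, and CCL5 by 5.82 (3.36 to 8.27). For CCL5 the control side was thin. Control non-cycling cells held 2 UMIs, and 3 of the 2560 other control cells held 93.3% of 344 UMIs. The CCL5 interval takes no account of UMIs gathered in few cells. CCL2 was at 139 CPM in control non-cycling cells and 15.7 CPM in knockdown ones, against 99.8 and 39.2 CPM in the others. The intervals set these differences against counting error and not against the spread between cultures or animals.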

How the data were processed

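The authors deposited, for each library, an unfiltered matrix of UMI counts per gene and barcode, with 6794880 barcodes listed, made with Cell Ranger 3.1.0 on GRCh38 per the submitters' processing notes and the file headers. The strand rule of the counting was not given in the sources used here, nor was it stated whether the reference held mouse sequence. Raw counts were summed over the cells of each group and divided by the group's UMIs, as CPM (per 1000000 UMIs), in Python 3.11.15 with numpy 2.4.6, scipy 1.17.1 and pandas 2.3.3. A gene was measured in a comparison at 10 CPM or more in either group. It was called at 1.5-fold or more with an exact conditional binomial 95% interval leaving out 1, and 0.5 counts were added in ratios. Shares have Clopper-Pearson intervals, and a count of 0 allows up to 3. Intervals of differences between log2 ratios used a normal approximation from the widths of both ratios' intervals. Thinning drew 15000 UMIs per cell. The calling was tested on simulated data, namely Poisson counts with known folds, which have the spread that the intervals assume. Those data held no UMIs gathered in few cells, so the test cannot tell how the calls fare with such genes. No doublet caller was run. Promoters came from RefSeq (GRCh38.p14) and gene positions from GENCODE 29.

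The members and the 29 gene lists and 10 marker lists were chosen with earlier results of these data known, and 748 of 751 list symbols were found. Named genes are, in each direction, the 12 with the largest ratio at 50 CPM or more in the higher group, for knockdown over control and for non-cycling over other cells (the smaller of both libraries' ratios), leaving out mitochondrial, clone-named and ribosomal pseudogene entries. To these come GANAB, PRKCSH, MALAT1, the rule's genes, CDK inhibitors and D cyclins, up to 4 genes per list by ratio and by level, and the 10 whose genotype ratio differs most between non-cycling and other cells. Further names were chosen after their values were seen. Some genes that the rule names are not reported here. Alternatives changed the membership rule, the CPM minimum, scaling, weighting and the cells used. The libraries held 239857346 control and 155064055 knockdown UMIs.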

Additional observations from a re-analysis of the deposited data

How the results depend on the processing

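No paired analysis was possible because each genotype was 1 library, and for the same reason no library could be left out. The knockdown share of non-cycling cells stayed above the control share under each membership rule tried: 17.7% and 29.9% without the MALAT1 limit, 26.6% and 43.7% in thinned cells, 25.4% and 42.2% with at most 1 UMI of the rule's genes, and 3.47% and 10.3% with 10 cycling genes. Of knockdown against control non-cycling cells, a minimum of 50 CPM gave 297 higher and 300 lower genes, no minimum 2074 and 1528, and marked cells alone 502 and 535. Of non-cycling against other cells, a minimum of 50 CPM gave 100 and 397 in control and 123 and 380 in knockdown cells, and no minimum 1396 and 1509, and 1230 and 1574. The 10 cycling genes gave 607 higher in control, and leaving mitochondrial and ribosomal protein genes out of the totals gave 697 higher in control and 619 in knockdown cells. Without cells above 100000 UMIs 202 were higher and 635 lower in knockdown cells, and with cells weighted equally 185 were higher. At 25000 to 40000 UMIs, chosen after the data were seen, the counts were 88 and 322 in control and 39 and 301 in knockdown cells.

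Directions turned for few named values. HMOX1 in knockdown non-cycling over other cells was 0.26 (log2) with members chosen after thinning. Among marked cells the knockdown over control ratio was 0.21 for UBE2C, 0.15 for PTTG1, -0.59 for TXNIP, -0.53 for NUPR1 and -0.67 for FN1. The NUPR1 value rests largely on 1 control cell. The median of the genes linked to the marked cells was -0.064, in a list that holds the pair of genes by which these cells were chosen. At matched depth non-cycling over other cells gave -0.13 for KLF2, -0.044 for KLF9, -0.85 for IFI27 and 3.75 for SPANXB1 in control, and -0.13 for TAGLN, -0.16 for EDIL3 and -0.017 for LPCAT2 in knockdown cells. Among control non-cycling cells of all depths, 3 cells held 84.2% of 76 SPANXB1 UMIs and 6 cells held 64.4% of 163 IFI27 UMIs. The causes of the turned directions were not tested. Low genes such as CDC20, TK1 and ASPM rest on few UMIs in the non-cycling cells, and their ratios are limited by depth.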

Other observations

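Lysosomal genes were not among the strong contrasts. Of 24 measured lysosome and autophagy genes 5 (20.8%) were higher and 3 (12.5%) lower in knockdown than in control non-cycling cells, with a median of 0.09. Over all measured genes 12.3% were higher and 10.7% lower. PSAP, the precursor of the saposins that help break down sphingolipids, was at 1992 CPM in control and 1258 CPM in knockdown non-cycling cells, and at 1038 and 742 CPM in the other cells. It was higher in non-cycling cells of both libraries over all cells, but at 25000 to 40000 UMIs its log2 ratios of 0.38 and 0.15 did not pass 1.5-fold. There GABARAPL1 in control cells was the only gene of the list that was higher.

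Chemokines under NF-kB control split by gene in the knockdown. CXCL1 was at 39.3 and 71.7 CPM, CXCL2 at 40.7 and 106 CPM and CXCL3 at 40.4 and 91.8 CPM in control and knockdown non-cycling cells. These neutrophil attractants are near copies of each other, and their counts are uncertain. CCL2, IER3, NFKBIZ and NFKB2 were lower, IER3 at 164 and 37.1 CPM. Of the 15 measured genes of the list 4 were higher and 4 lower, the median being -0.09. The shares of all measured genes were 12.3% and 10.7%. Among marked cells 8 of 16 were higher and 3 lower, the median being 0.60, where the shares of all measured genes were 6.37% and 6.79%.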
